A study of Homarus americanus with 19 samples.

Results

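Seq2Fun assigns RNA-seq reads by a translated search to ortholog groups, which are sets of related protein-coding genes shared between species. Of 13933 ortholog groups counted in American lobster (Homarus americanus) larvae, 28 had graded means, highest in larvae exposed to 1-methylnaphthalene, intermediate in larvae exposed to WAF, and lowest in control larvae. They were chosen on the measured values. For each larva, x was log2(CPM + 0.5), where CPM is the count scaled to a Seq2Fun total of 1000000 in that larva. The mean x of methylnaphthalene larvae had to exceed that of control larvae by at least 1.2, the mean x of WAF larvae had to exceed it by at least 0.6, and WAF had to lie below methylnaphthalene. A last condition used the noncoding share, the percent of a larva's counts on noncoding (XR) transcripts in a second table made with Kallisto. With group means subtracted, the correlation r between x and this share over 19 larvae had to be under 0.8 in absolute value. The grade is therefore a criterion and not a finding, and every difference between groups given for the 28 groups is a description.

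The groups were 6 larvae exposed to 1-methylnaphthalene at 0.3 mg/L, a polycyclic aromatic hydrocarbon that served as positive control, 7 larvae exposed to 72% WAF, the water accommodated fraction of a heavy crude oil, and 6 larvae kept in 0.22 µm filtered seawater as control. All were stage I larvae exposed for 24 h according to the design, whereas the sample labels give embryonic day 9. The dose of methylnaphthalene is that of the labels, and a supplementary note of the study states another. Each library came from whole larvae, and no strain or parent is named. WAF is a mixture and methylnaphthalene a single compound, dosed in different units, so the order of the groups is no dose series. In homogenized whole larvae, more cells of a type and more RNA per cell cannot be told apart.

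Aromatic hydrocarbons that enter an animal are usually oxidized first, by enzymes such as cytochrome P450, whose epoxide products epoxide hydrolases open. Conjugating enzymes then attach a sugar or another polar group, and carriers export the product. In crustaceans much of this takes place in the hepatopancreas, the digestive gland that also stores reserves, while glucose and trehalose carry energy in the haemolymph.

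Seq2Fun totals ranged from 4580939 to 22681602 counts, and the highest was that of WAF replicate 6, for which the next WAF larva had 8751232. The noncoding share ranged from 15.2% to 35.1% in methylnaphthalene larvae, from 14.9% to 35.7% in WAF larvae and from 17.8% to 28.9% in control larvae. WAF replicates 6 and 7 had 14.9% and 18.3%, whereas the other WAF larvae all exceeded 30%. These 2 larvae stood apart from the rest of their group, so values are also given without them, a choice made after seeing the data. Of the 28 groups, 27 had a name in the authors' annotation, 17 of these a name that says what the protein is, and 10 were uncharacterized or hypothetical. The names available here covered 2023 groups, mostly those that differed most between methylnaphthalene and control, so counts over named groups are not those of a neutral sample.

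Differences from control ranged from 1.22 to 3.21 in methylnaphthalene larvae (median 1.83) and from 0.60 to 1.29 in WAF larvae (median 0.70). Methylnaphthalene exceeded WAF by 0.29 to 2.24 (median 1.01). Over all 10974 groups tested the medians were -0.06 for methylnaphthalene and -0.05 for WAF. All 28 passed the filter on low and invariable counts. The number called by edgeR is printed here only beside its background, since the rule used the same contrasts. For methylnaphthalene against control, 22 of the 28 were DEGs on the high side (Benjamini-Hochberg adjusted p below 0.05 and log2 fold change above 1.5), where the background was 2.76% of all groups tested. An adjusted p below 0.05 at any fold change was given by 27, against 5.6%, and an unadjusted p below 0.05 by all 28, against 9.86%. For WAF against control none of the 28 was a DEG, against a background of 0%, 25 had an unadjusted p below 0.05, against 3.34%, and 3 had an adjusted p below 0.05, against 0.082%. Without WAF replicate 6 the unadjusted count was 16, against 5.2%, and the adjusted count was 1, against 0.0638%. Limma, edgeR's likelihood ratio test and DESeq2 also gave 0 DEGs among the 28 for WAF, against 0, 1 and 1 of all groups tested on the high side. For methylnaphthalene against WAF, 2 of the 28 were DEGs, against 0.747%, but without WAF replicate 6 there were 12, against 3.03%. An adjusted p below 0.05 was given by 7, against 2.26%, and an unadjusted p below 0.05 by 23, against 10.3%.

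The groups overlapped to different degrees. In 23 of the 28, every methylnaphthalene larva lay above every control larva, compared with 3.64% of all groups tested. In 5, every WAF larva lay above every control larva, compared with 0.237%, and in 8 without control replicate 4, compared with 0.392%. With library sizes scaled by TMM, as in the edgeR fits, there were 4, with no share counted over all groups. The 5 by CPM were trehalose-phosphate synthase, phosphoenolpyruvate carboxykinase, a histone methyltransferase, an a-agglutinin-like protein and the hypothetical protein s2f_0000328018. Only the uncharacterized s2f_0144869001 had every methylnaphthalene larva above every WAF larva, compared with 0.392%, and without WAF replicate 6 there were 6, compared with 1.49%. For most members, then, the WAF larvae spread from the control range into the methylnaphthalene range.

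**Figure D1:**
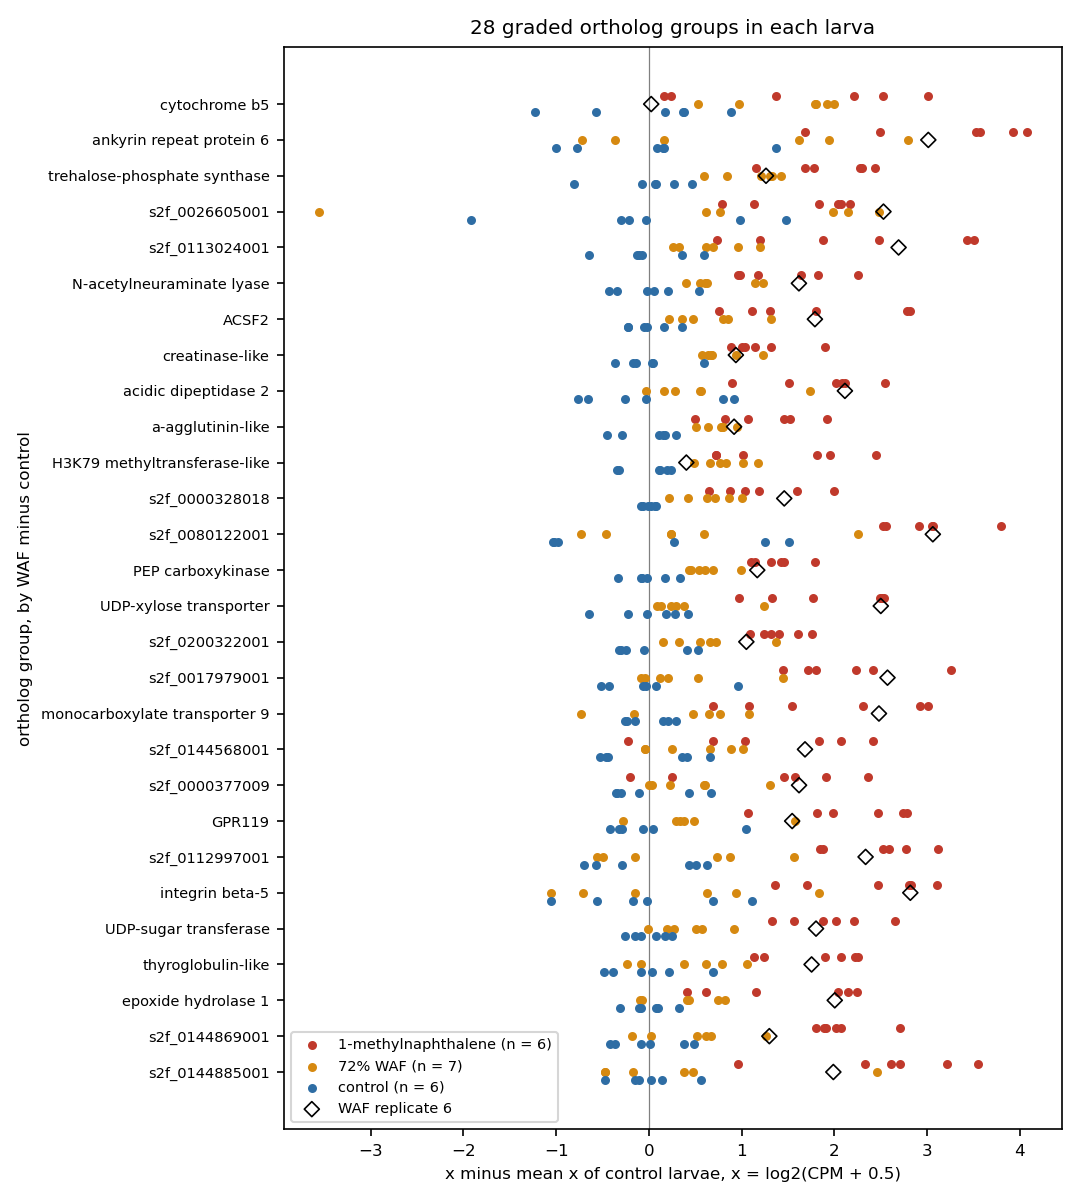
Each row is 1 of the 28 ortholog groups and each point a larva, placed at x minus the mean x of the 6 control larvae (log2 scale), with 6 methylnaphthalene larvae (red), 7 WAF larvae (orange, replicate 6 as an open diamond) and 6 control larvae (blue). WAF replicate 6 lies above all control larvae in 27 rows, while the remaining WAF larvae mostly lie nearer to control.

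Carbohydrate metabolism held 3 members, among them the 2 most abundant of all. Alpha,alpha-trehalose-phosphate synthase (s2f_0000779006) makes the phosphorylated precursor of trehalose, a blood sugar of arthropods. It had a lowest, median and highest value of 750, 1397 and 1825 CPM in methylnaphthalene larvae, 509, 808 and 904 CPM in WAF larvae, and 191, 354 and 465 CPM in control larvae. All WAF larvae lay above all control larvae, and 5 of 7 lay above the lowest methylnaphthalene larva. Mean x differed from control by 1.94 in methylnaphthalene larvae and by 1.14 in WAF larvae. The WAF difference was 1.12 without replicate 6 and 1.05 without replicates 6 and 7, so neither larva set it.

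Phosphoenolpyruvate carboxykinase (s2f_0004494001) catalyses an early step of gluconeogenesis, the synthesis of glucose from smaller molecules. Its values were 1399, 1683 and 2258 CPM in methylnaphthalene larvae, 876, 991 and 1463 CPM in WAF larvae, and 516, 630 and 818 CPM in control larvae. The lowest WAF larva again exceeded the highest control larva, but only replicate 6, at 1463 CPM, reached the methylnaphthalene range. Replicate 7 followed with 1295 CPM. The WAF difference was 0.70, 0.62 without replicate 6, and 0.54 without both.

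N-acetylneuraminate lyase-like (s2f_0006700001) cleaves sialic acid into an amino sugar and pyruvate. It was far less abundant, with 14.0, 19.5 and 34.9 CPM in methylnaphthalene larvae, 9.34, 11.03 and 22.4 CPM in WAF larvae, and 5.02, 7.04 and 10.3 CPM in control larvae. In all, 6 WAF larvae exceeded all control larvae, and the WAF difference of 0.88 was 0.76 without replicate 6. Among all 26 named groups of carbohydrate metabolism that were tested, 19 were higher and 1 lower with methylnaphthalene at an adjusted p below 0.05 (edgeR), and 2 were higher with WAF. Over all groups tested 5.6% were higher with methylnaphthalene, but among named groups in no list the share was 28.7%. The median differences of this list from control were 1.30 for methylnaphthalene and 0.19 for WAF, and the WAF median was -0.0024 without replicate 6.

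Related named groups outside the 28 also had high methylnaphthalene means. Glucose-6-phosphatase 2-like (s2f_0003177004), which releases free glucose at the end of gluconeogenesis, differed from control by 1.84 in methylnaphthalene larvae and by 0.24 in WAF larvae. For the facilitated trehalose transporter Tret1-like (s2f_0000010050) the differences were 1.15 and 0.31. A putative phosphoenolpyruvate synthase (s2f_0006941003) differed by 3.36 and 0.76 and was left out by its r of -0.88 with the noncoding share. Without WAF replicate 6 its WAF difference was 0.16.

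Cytochrome b5-like (CYB5C, s2f_0000486003) had the largest WAF difference of the 28. Cytochrome b5 is a small haem protein that passes electrons to fatty acid desaturases and to some cytochrome P450 enzymes. It had 50.3, 164 and 366 CPM in methylnaphthalene larvae, 45.8, 157 and 181 CPM in WAF larvae, and 18.9, 54.4 and 83.4 CPM in control larvae. Here WAF replicate 6 was the lowest WAF larva and lay inside the control range. The WAF difference of 1.29 was thus larger without it, at 1.504, and 1.61 without replicate 7 as well.

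Methylnaphthalene larvae were more uneven for cytochrome b5 than WAF larvae, with an SD of x of 1.201 (n = 6) against 0.78 (n = 7). Replicates 1, 2 and 3 of methylnaphthalene had 262, 366 and 210 CPM, and replicates 4, 5 and 6 had 53.1, 117 and 50.3 CPM. The first 3 of these had noncoding shares of 26.3% or more and the last 3 of 16.5% or less. Over the 19 larvae, with group means subtracted, r between x and the noncoding share was 0.55. The part of the noncoding share in these levels was not tested. With the noncoding share removed by its slope within groups, a step added after seeing the data, the WAF difference was 0.85.

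Among other groups with cytochrome b5 in their name, NADH-cytochrome b5 reductase 2 (s2f_0000325007) differed from control by 0.71 in methylnaphthalene larvae and by -0.39 in WAF larvae. The group named cytochrome b5 domain-containing protein RLF (s2f_0000325008) differed by 0.70 and 0.01. The groups with the pattern most like cytochrome b5 over the 19 larvae were s2f_0000197012 and s2f_0380659001, both without a name here, with r of 0.91 for each. Neither was among the 28, since their methylnaphthalene differences were 0.21 for both. Their WAF differences were 0.58 and 0.89, so WAF lay above methylnaphthalene in both.

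Epoxide hydrolase and a group placed by its name in the list of conjugating enzymes were the only members in the detoxification lists. Epoxide hydrolase 1-like (s2f_0001796006), the membrane-bound type that opens epoxides of aromatic compounds in mammals, had 13.0, 31.6 and 47.7 CPM in methylnaphthalene larvae, 8.99, 13.2 and 40.2 CPM in WAF larvae, and 7.66, 9.65 and 12.2 CPM in control larvae. The 40.2 CPM were those of WAF replicate 6, and the next WAF larva had 17.4 CPM. Of 7 WAF larvae 5 exceeded all control larvae, yet the WAF difference of 0.61 was 0.38 without replicate 6. Its relative epoxide hydrolase 4-like (s2f_0000448007) differed from control by 0.71 with methylnaphthalene and 0.21 with WAF.

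The group named 2-hydroxyacylsphingosine 1-beta-galactosyltransferase-like (s2f_0000108009) belongs to the UDP-sugar transferases, a family whose members attach sugars to lipids or to foreign compounds. Its values were 241, 372 and 605 CPM in methylnaphthalene larvae, 95.2, 137 and 336 CPM in WAF larvae, and 80.1, 95.5 and 114 CPM in control larvae. Every methylnaphthalene larva lay above every control larva. Only WAF replicate 6 reached the methylnaphthalene range, and the WAF difference was 0.41 without it.

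No cytochrome P450 group was a member. All 7 named and tested were higher with methylnaphthalene at an adjusted p below 0.05 (edgeR), and 0 with WAF, where 28.7% of named groups in no list were higher with methylnaphthalene. Their median differences were 1.33 for methylnaphthalene and 0.09 for WAF, and -0.35 for WAF without replicate 6. Of 14 named conjugating enzymes 8 were higher with methylnaphthalene, and of 15 named efflux and organic ion carriers also 8, and in both lists 0 were higher with WAF. The names were drawn mostly from groups that differed with methylnaphthalene, which bears on these shares and on the 28.7% in no list. The lists were also written with earlier results of these data known. Whether the lists differ from other named groups was not tested.

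**Figure D2:**
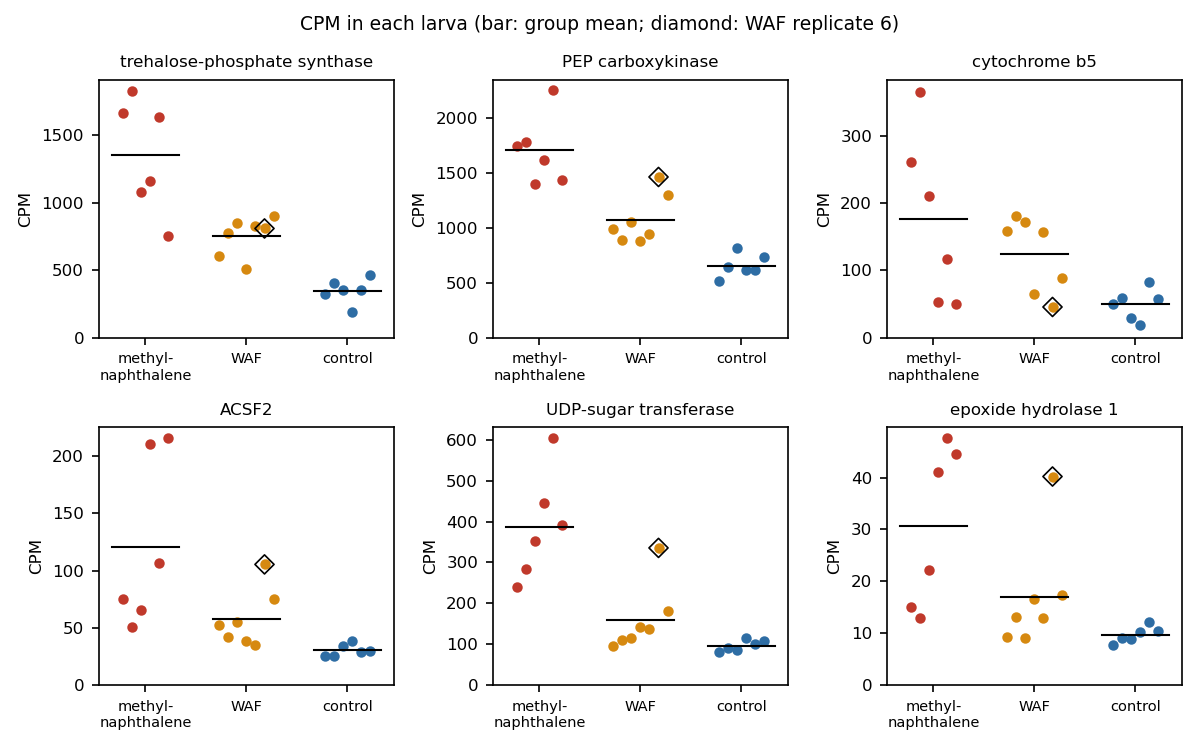
CPM of 6 members in each of 6 methylnaphthalene, 7 WAF and 6 control larvae (points), with the group mean as a bar and WAF replicate 6 as an open diamond. All WAF larvae lie above all control larvae for trehalose-phosphate synthase and PEP carboxykinase, whereas WAF replicate 6 is the lowest WAF larva for cytochrome b5 and by far the highest for the UDP-sugar transferase and epoxide hydrolase 1.

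Lipid metabolism and transport gave 3 members, and WAF replicate 6 was the highest WAF larva for each. Acyl-CoA synthetase family member 2 (ACSF2, s2f_0000102021), a mitochondrial enzyme that activates fatty acids by joining them to coenzyme A, had 51.1, 90.9 and 216 CPM in methylnaphthalene larvae, 35.0, 52.6 and 105.4 CPM in WAF larvae, and 25.6, 29.3 and 38.8 CPM in control larvae. In all, 5 WAF larvae exceeded all control larvae. The WAF difference was 0.83, and 0.67 without replicate 6. The related luciferin 4-monooxygenase-like group s2f_0000102010 met the differences but fell outside the limit on r, at -0.82.

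The UDP-xylose and UDP-N-acetylglucosamine transporter (s2f_0005353001) carries sugar nucleotides into the Golgi apparatus and endoplasmic reticulum. It had 15.3, 35.9 and 46.2 CPM in methylnaphthalene larvae, 8.05, 9.31 and 45.01 CPM in WAF larvae, and 4.65, 8.04 and 10.3 CPM in control larvae. WAF replicate 6 supplied the 45.01 CPM and replicate 7 another 18.5 CPM, while the other 5 WAF larvae lay inside the control range. Accordingly its WAF difference of 0.69 was 0.39 without replicate 6 and 0.22 without both.

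Monocarboxylate transporter 9 (s2f_0000064019), of a family that moves lactate, ketone bodies and other small acids across membranes, rested on few reads. It had 7 to 130 counts in methylnaphthalene larvae, 0 to 94 in WAF larvae and 2 to 7 in control larvae. In WAF, 94 counts were in replicate 6, the deepest library, and no other WAF larva had more than 11. Scaled to depth, replicate 6 had 4.14 CPM, the next WAF larva 1.26 CPM and the highest control larva 0.52 CPM. By CPM, 5 WAF larvae exceeded all control larvae. The WAF difference was 0.65, and 0.35 without replicate 6. A relative, monocarboxylate transporter 12-like s2f_0020008001, differed from control by 2.60 with methylnaphthalene and 0.57 with WAF.

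The receptor annotated as glucose-dependent insulinotropic receptor (GPR119, s2f_0008625001) senses fatty acid derivatives in the mammalian gut and pancreas. It had 7.49, 17.5 and 25.6 CPM in methylnaphthalene larvae, 2.62, 4.43 and 10.9 CPM in WAF larvae, and 2.35, 2.87 and 7.34 CPM in control larvae. WAF replicates 6 and 7 had 10.6 and 10.9 CPM and were the only WAF larvae above all control larvae.

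Cell surface and protein breakdown were represented by 2 named members. Integrin beta-5 (ITGB5, s2f_0000582005), a subunit of a receptor for extracellular matrix, had 24 to 144 counts in methylnaphthalene larvae, 0 to 155 in WAF larvae and 0 to 18 in control larvae. In CPM, integrin beta-5 had 2.16 to 8.45, 0 to 6.83 and 0 to 1.75, and 2 WAF larvae exceeded all control larvae. Its WAF difference of 0.61 was 0.25 without replicate 6, the lowest of the 28, and -0.07 without replicates 6 and 7. Integrin alpha-9-like (s2f_0000416017) differed by 2.78 with methylnaphthalene and by 0.51 with WAF, and integrin beta-1-like (s2f_0000582008) by 2.22 and 0.05.

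N-acetylated-alpha-linked acidic dipeptidase 2-like (s2f_0000611004), a peptidase that removes glutamate from the end of small peptides, had 35.7, 80.7 and 114 CPM in methylnaphthalene larvae, 18.6, 28.2 and 84.1 CPM in WAF larvae, and 11.01, 17.2 and 36.4 CPM in control larvae. Of 6 methylnaphthalene larvae 1 fell inside the control range, as did 5 WAF larvae. Its WAF difference was 0.77, and 0.55 without replicate 6.

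The remaining members with an informative name belonged to no functional list. Histone-lysine N-methyltransferase, H3 lysine-79 specific-like (s2f_0112975001), is named for a chromatin enzyme that marks transcribed genes. It had 47.8, 80.5 and 160 CPM in methylnaphthalene larvae, 38.2, 49.1 and 65.8 CPM in WAF larvae, and 22.5, 31.2 and 34.1 CPM in control larvae. All exposed larvae lay above all control larvae. This group had the highest positive r with the noncoding share, 0.76, and WAF replicate 6 was again the lowest WAF larva. Its WAF difference was 0.76, 0.82 without replicate 6, and 0.46 with the noncoding share removed.

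An a-agglutinin anchorage subunit-like group (s2f_0112846001), named after a yeast cell wall adhesion protein, had 15.4, 26.8 and 42.2 CPM in methylnaphthalene larvae, 15.5, 18.9 and 21.2 CPM in WAF larvae, and 7.75, 11.8 and 13.3 CPM in control larvae. The WAF larvae were tighter here than for any other member, with an SD of x of 0.15 (n = 7), and they did not overlap control. Its WAF difference of 0.77 was 0.74 without replicate 6 or without both replicates.

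Creatinase-like (s2f_0022538001), named for an enzyme that splits creatine in bacteria, had 119, 138.2 and 241 CPM in methylnaphthalene larvae, 96.2, 103.5 and 152 CPM in WAF larvae, and 49.9, 62.2 and 97.4 CPM in control larvae. In all, 6 WAF larvae exceeded all control larvae. Its differences of 1.22 for methylnaphthalene and 0.81 for WAF were closer together than for all other members but cytochrome b5. The WAF difference was 0.79 without replicate 6 and 0.82 without both.

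Ankyrin repeat domain-containing protein 6-like (ANKRD6, s2f_0008053002) has a vertebrate namesake in Wnt signalling and showed the largest methylnaphthalene difference, 3.21. It had 3.38, 13.7 and 19.9 CPM in methylnaphthalene larvae, 0.231, 3.22 and 9.26 CPM in WAF larvae, and 0.102, 0.816 and 2.62 CPM in control larvae. No methylnaphthalene larva overlapped control, while 3 of 7 WAF larvae lay inside the control range. The WAF difference was 1.21, 0.91 without replicate 6 and 0.53 without both.

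Thyroglobulin-like (s2f_0011926001), whose vertebrate namesake is the thyroid hormone precursor, is named here after its values were seen. It had 42.4, 76.9 and 92.4 CPM in methylnaphthalene larvae, 16.02, 29.3 and 65.4 CPM in WAF larvae, and 13.5, 18.7 and 31.1 CPM in control larvae. WAF replicate 6 was the highest WAF larva, and the WAF difference of 0.61 was 0.42 without it.

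Of the 11 members without an informative name, 7 lay between 0.60 and 0.69 in their WAF difference. The uncharacterized s2f_0200322001, named for the lobster gene LOC121853568, had 65.3, 79.04 and 104.3 CPM in methylnaphthalene larvae, 33.8, 48.4 and 79.4 CPM in WAF larvae, and 24.2, 27.4 and 44.1 CPM in control larvae. Its highest WAF larva was replicate 4, and the WAF difference was 0.69, or 0.63 without replicate 6. The hypothetical protein s2f_0000328018 had 21.0 to 54.5 CPM in methylnaphthalene larvae, 15.5 to 37.3 CPM in WAF larvae and 12.4 to 14.0 CPM in control larvae. It varied least among control larvae, with an SD of x of 0.07 (n = 6), and is singled out after its values were seen.

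A group without any name, s2f_0026605001, had 11.98, 27.3 and 32.1 CPM in methylnaphthalene larvae, 0.115, 28.2 and 41.2 CPM in WAF larvae, and 1.41, 6.13 and 19.6 CPM in control larvae. WAF replicate 3, at 0.115 CPM, had less than any control larva, although the WAF median slightly exceeded that of methylnaphthalene. The uncharacterized s2f_0080122001, also singled out for its values, showed the widest gap between methylnaphthalene and WAF, 2.24, with 12.7 to 31.1 CPM in methylnaphthalene larvae, 0.873 to 18.6 CPM in WAF larvae and 0.612 to 6.00 CPM in control larvae. Its WAF difference of 0.74 was 0.36 without replicate 6 and -0.02 without both.

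WAF replicate 6 was the highest WAF larva for 20 of the 28, compared with 37.5% of all groups tested. It exceeded every control larva in 27, compared with 26.1% of all groups tested, and the median methylnaphthalene larva in 14, compared with 62.4%. Once replicate 6 was set aside, replicate 7 was the highest for 21, compared with 51.0% of all groups tested. Per larva, the number of members above all control larvae was 24 to 28 in methylnaphthalene larvae, and it was 27 and 28 in WAF replicates 6 and 7 but 11 to 17 in the other 5 WAF larvae. Over all groups tested the share above all control larvae was 13.3% to 33.7% in methylnaphthalene larvae, 26.1% and 22.4% in WAF replicates 6 and 7, and 13.2% to 20.3% in the other 5.

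Without WAF replicate 6 all 28 WAF differences stayed above 0, but they ran from 0.25 to 1.504 with a median of 0.52, and 13 reached the limit of 0.6. Exactly these 13 groups met the whole rule without that larva. They were cytochrome b5, trehalose-phosphate synthase, ankyrin repeat protein 6, the histone methyltransferase, creatinase-like, N-acetylneuraminate lyase, the a-agglutinin-like group, ACSF2, phosphoenolpyruvate carboxykinase, s2f_0026605001, s2f_0113024001, s2f_0000328018 and s2f_0200322001. The 15 that did not included both members of the detoxification lists, both carriers, GPR119 and integrin beta-5. Without replicates 6 and 7 the differences ran from -0.07 to 1.61 with a median of 0.34, and 7 members reached 0.6.

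**Figure D3:**
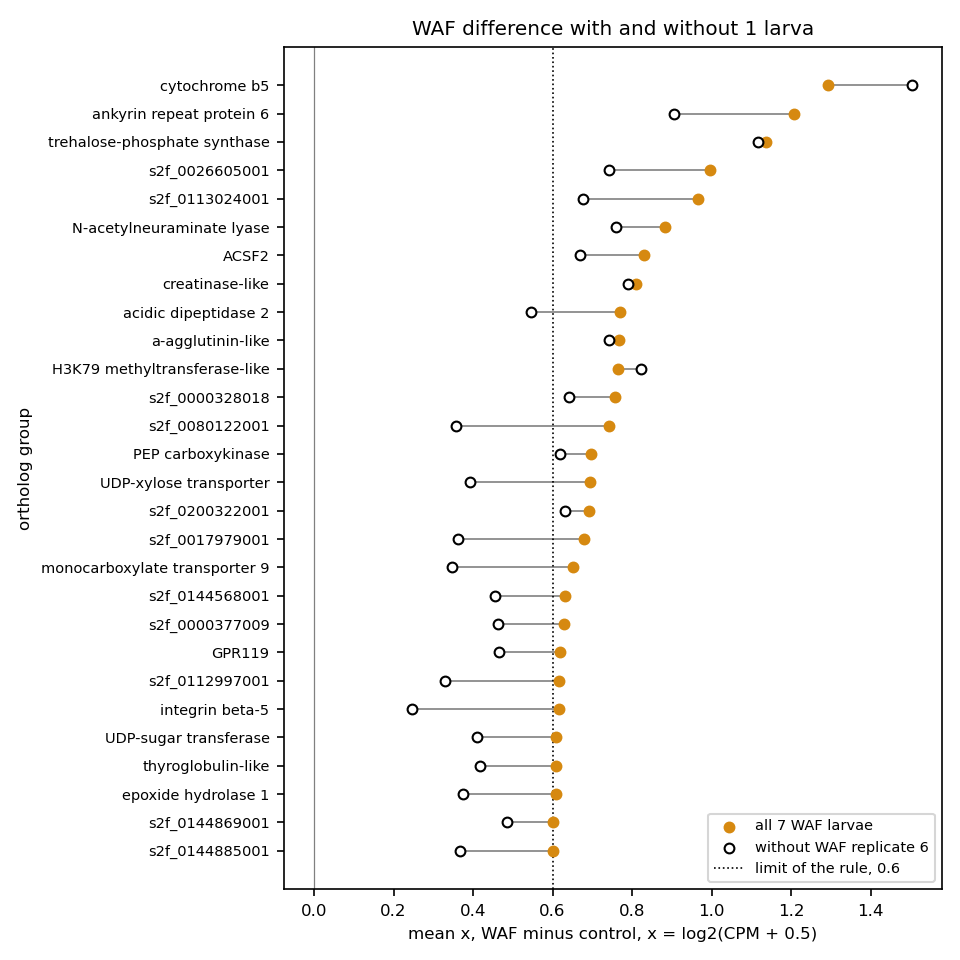
For each of the 28 ortholog groups, the mean x of WAF larvae minus that of 6 control larvae (log2 scale) with all 7 WAF larvae (orange) and without WAF replicate 6 (open circles), and the limit of 0.6 as a dotted line. Without replicate 6, 13 groups stay at or above the limit, and cytochrome b5 and the histone methyltransferase shift to larger differences.

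The rule was also applied with each larva left out in turn, and the groups so chosen were read in that larva. The remaining control larvae took part in the choice, which asks for low control means, so the comparison is tilted towards a left-out larva lying above them. Left-out WAF replicates 6 and 7 had median x of 5.38 and 5.50, above remaining control ranges of 4.28 to 4.71 and 3.69 to 4.65, and replicate 4 had 3.38 against 2.08 to 2.999. Replicates 1, 2 and 5 lay within the control range and replicate 3 below it. Of 6 left-out control larvae, 2 also lay above the other control larvae, with 3.16 against 1.97 to 2.999 for replicate 4 and 3.41 against 2.36 to 3.21 for replicate 5. These values are descriptions only, and 3 of 7 WAF larvae above control is to be read beside 2 of 6 control larvae.

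Most members varied together within groups. With group means subtracted, the median r over 378 pairs of members was 0.47, against 0.16 over all groups tested, and 0.34 without WAF replicate 6. The larvae share depth and noncoding share, so these values are descriptions. Correlation with the noncoding share was negative for 23 members and positive for 5, with a median of -0.67 against -0.56 over all groups tested. It was 0.6 or more in absolute value for 20 of the 28 and for 65.1% of all groups tested. The 19 members at -0.6 or lower had a median pairwise r of 0.69, and the other 9 had 0.02, and between these 2 sets it was 0.03. Groups that share a strong r with the same variable tend to correlate with each other, so this contrast follows in part from the split. The same split was not made over all groups tested. The 9 were cytochrome b5, trehalose-phosphate synthase, N-acetylneuraminate lyase, creatinase-like, the a-agglutinin-like group, the histone methyltransferase, s2f_0026605001, s2f_0200322001 and s2f_0144869001. All but the last also met the rule without WAF replicate 6.

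**Figure D4:**
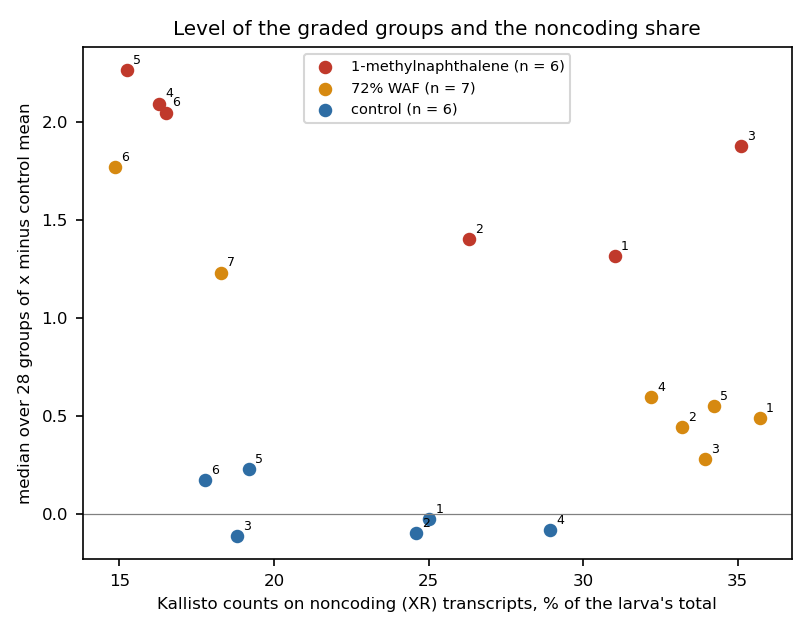
Noncoding share of each larva (percent of its Kallisto counts on XR transcripts) against the median over the 28 ortholog groups of x minus the control mean (log2 scale), for 6 methylnaphthalene, 7 WAF and 6 control larvae, with replicate numbers beside the points. WAF replicates 6 and 7, with 14.9% and 18.3%, have medians of 1.77 and 1.23, while the other 5 WAF larvae lie between 0.28 and 0.60 and above 30%.

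Within the WAF group, then, the larvae with the lowest noncoding share had the highest median level, and methylnaphthalene replicates 4, 5 and 6, at 15.2% to 16.5%, also had the highest medians of their group. Methylnaphthalene replicate 3, with the highest share of 35.1%, had 1.88, above replicates 1 and 2 with 1.32 and 1.41. Control replicates 5 and 6, at 19.2% and 17.8%, had the highest control medians, but replicate 3, at 18.8%, had the lowest, -0.11. With the noncoding share removed by its slope within groups, the median difference was 1.90 for methylnaphthalene and 1.05 for WAF, and 27 members kept a WAF difference of at least 0.6. Over all groups tested the medians were then -0.05 for methylnaphthalene and 0.07 for WAF. With the share as a covariate in edgeR, 3 of the 28 were DEGs for WAF, against 0.292% of all groups tested. The level of the members also moved with depth, with a median r of 0.49 with the log2 Seq2Fun total, against 0.36 over all groups tested. The part of noncoding share and depth in the grade was not tested beyond these values.

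Digestive gland markers varied with the members within groups, but did not share their grade in group medians. Their summed level had medians of 5000 CPM in methylnaphthalene larvae, 724 CPM in WAF larvae and 959 CPM in control larvae. Summed over 19 named groups of digestive enzymes, the level was 3064 to 7827 CPM in methylnaphthalene larvae, 605 to 4303 CPM in WAF larvae and 677 to 1708 CPM in control larvae. The 4303 CPM were those of WAF replicate 6 and replicate 7 had 2711 CPM, but no other WAF larva exceeded 853 CPM. Of these 19 groups, 17 had a higher mean with methylnaphthalene than in control and 12 with WAF. With group means subtracted, r between the summed log2 level and the median level of the members was 0.86 over 19 larvae. None of the marker groups was a member, none of their sums was at 0, and many of the names come from the groups that differed most with methylnaphthalene. The same r was 0.68 for muscle markers, whose sums were 24669 to 70586 CPM in methylnaphthalene larvae, 25950 to 81278 CPM in WAF larvae and 51714 to 102277 CPM in control larvae. Of 11 muscle groups 2 had a higher mean with methylnaphthalene than in control. For cuticle, haemocyte and nervous system lists r was -0.01, -0.25 and 0.22. Nervous system and eye markers summed to 1044 to 3682 CPM in methylnaphthalene larvae, 365 to 1004 CPM in WAF larvae and 515 to 1225 CPM in control larvae, and 7 of 10 had a higher mean with methylnaphthalene. Haemocyte markers summed to 2719 to 4825 CPM in methylnaphthalene larvae, 2103 to 3105 CPM in WAF larvae and 1624 to 2420 CPM in control larvae, and 4 of 5 were higher with methylnaphthalene. Cuticle markers summed to 2182 to 5568 CPM in methylnaphthalene larvae, 3013 to 6098 CPM in WAF larvae and 2985 to 8533 CPM in control larvae. The part of tissue composition in the grade was not tested.

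The members just inside and just outside the limits differed little. In WAF differences, s2f_0144885001 and s2f_0144869001 stood at 0.60 and epoxide hydrolase 1-like at 0.61, while the Piwi-like protein Siwi (s2f_0001787003) and ovochymase-2 (s2f_0000001045) stood at 0.60 just below the limit and a peptidyl-prolyl isomerase (s2f_0056841001) at 0.59. In methylnaphthalene differences, creatinase-like, the a-agglutinin-like group and s2f_0000328018 stood at 1.22, and the first groups outside at 1.18, 1.16 and 1.14. In r, the UDP-xylose transporter, ankyrin repeat protein 6 and epoxide hydrolase 1-like stood at -0.80, -0.80 and -0.79, while a collagen alpha-1(XIV) chain-like group (s2f_0093833001) at -0.80 was just outside. The limit on r took out 25 groups that met the differences. All 25 had a negative r and WAF replicate 6 as the highest WAF larva, and only 1 kept a WAF difference of 0.6 without that larva. A further 301 groups met the methylnaphthalene limit only, with a median WAF difference of 0.22, or -0.08 without replicate 6.

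Kallisto counts of lobster genes were compared for members whose description matched a gene exactly or carried its number. They come from the same reads and larvae, so they are no independent measure. The cytochrome b5-like gene LOC121862914 differed from control by 1.52 with methylnaphthalene and 1.11 with WAF, and its r with the ortholog group was 0.99. The trehalose-phosphate synthase gene LOC121861358 differed by 1.91 and 1.02 (r = 0.97), and the histone methyltransferase gene LOC121868106 by 1.28 and 0.84 (r = 0.93). Unlike in their ortholog groups, some exposed larvae overlapped control in both genes. For LOC121861358, 6 of 7 WAF larvae exceeded all control larvae, and for LOC121868106, 5 of 6 methylnaphthalene larvae did. Creatinase-like matched 3 genes, of which LOC121877913 was the most abundant and differed by 1.196 and 0.61 (r = 0.75). Its methylnaphthalene value was just below the limit of 1.2, and its WAF value was 0.51 without replicate 6. LOC121879516 differed by 0.90 and 0.90 (r = 0.49), and LOC121866875, at most 0.94 CPM in any larva, by 0.54 and 0.17 (r = 0.19). Gene LOC121853568 had differences of 1.35 and 0.37, with the WAF value below the limit, and 0.21 for WAF without replicate 6 (r = 0.65).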

How the data were processed

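RNA-seq libraries of 19 whole lobster larvae were used, 6 exposed to methylnaphthalene, 7 to WAF and 6 controls. The authors deposited raw counts per Seq2Fun ortholog group (Crustaceans database, at most 2 mismatches, matching length of at least 19, BLOSUM62 score of at least 80, reads filtered at a minimum quality score of 25) and estimated counts per RefSeq transcript from Kallisto on the GMGI_Hamer_2.0 assembly. Neither table was normalized. Seq2Fun searches proteins, so noncoding transcripts enter only the Kallisto table, and reads of related genes share an ortholog group. Kallisto estimated counts were summed over 25667 genes and rounded. Ortholog group names came from the supplementary tables of the paper, of which no value was used.

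Class means used log2(CPM + 0.5). Differential expression was fitted over all 19 larvae together with the quasi-likelihood model of edgeR 4.0.16 (R 4.3.3, TMM scaling), for groups with a total of at least 4 counts after removal of the 15% with the smallest interquartile range. The thresholds for DEGs were 0.05 for the adjusted p and 1.5 for the size of the log2 fold change. Limma 3.58.1, edgeR's likelihood ratio test, DESeq2 1.42.0, other filters, scalings and pseudocounts, the replicate number as a block and leaving out each larva were alternatives. Scripts were tested on simulated data. Replicates are separate libraries, and nothing says which larvae shared a vessel.

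The members and lists were chosen with earlier results of these data known. Named members are the 12 with an informative name and the largest WAF difference, up to 4 per functional list, the 5 most abundant, those at each limit, and the groups most like the leading member. No chromosome or scaffold of these genes was given in the annotation used here, so no coordinates are printed.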

Additional observations from a re-analysis of the deposited data

Results flagged for a closer look

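Dixon's test at the 95% level was applied to 93 sets of larvae, which were the 28 ortholog groups in each of the 3 groups of larvae and the library measures, and it marked 5. Chance marks about 1 in 20. The group without a name s2f_0026605001 had x of -0.70 in WAF replicate 3, far below the next WAF larva at 3.47. The uncharacterized s2f_0113024001 had x of 3.73 in WAF replicate 6, with the next WAF larva at 2.24. The uncharacterized s2f_0144869001 had x of 5.35 in methylnaphthalene replicate 3, with the next at 4.72. GPR119 (s2f_0008625001) had x of 2.97 in control replicate 1, with the next control larva at 1.97. The Seq2Fun total of WAF replicate 6, 22681602 counts, was the fifth.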

How the results depend on the processing

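The medians of the members' differences moved by less than the replicate spread under every alternative run. That spread, the SD over larvae of the median x, was 0.43 for methylnaphthalene and 0.56 for WAF. It is a wide limit beside a median WAF difference of 0.70, so this does not show stability. The median WAF difference was 0.52 without WAF replicate 6 and 1.05 with the noncoding share removed by its slope within groups. WAF differences of single members were set against the SD of x over the WAF larvae, under the alternatives that can change them. Of these, 531 moved by less than that SD, 1 by more and 0 changed sign. Leaving out 1 WAF larva cannot move a group mean by that much, so this count does not show stability. The SD itself had a median of 0.69 over the members, and 0.48 without WAF replicate 6. Without that larva only 13 members kept a WAF difference of at least 0.6. Other limits on r and the count filter leave the members' own medians as they are and give no further value for them. The count of groups that met the rule depended most on the pseudocount and on r. It was 15 with a pseudocount of 1 and 75 with 0.1, 53 with no limit on r and 8 with r under 0.6, against 28. Of the 28, 15 were shared with a pseudocount of 1, 17 with class medians and 8 with r under 0.6. Leaving out 1 larva gave 13 to 50 groups, 13 to 27 of them shared. The count was 13 without WAF replicate 6, 15 without WAF 7 and 17 without control 2. It was 50 without WAF 1, 43 without WAF 3, 44 without control 5 and 45 without control 6. Median differences were 1.72 to 1.96 for methylnaphthalene and 0.52 to 0.79 for WAF. For methylnaphthalene, 18 to 23 members were DEGs, where 235 to 326 of all 10974 groups tested were DEGs on the high side. For WAF, 0 members were, against 0 to 1 of all groups. For methylnaphthalene against WAF, 0 to 12 were, against 34 to 332. Members without overlap numbered 23 to 25, 5 to 8 and 1 to 6. With all larvae, 3.64%, 0.237% and 0.392% of all groups tested did not overlap. The share was 0.392% for WAF without control replicate 4. For methylnaphthalene against WAF it was 1.49% without WAF replicate 6. For WAF, 3 members were called with no fold change threshold and 3 with the noncoding share as covariate, against 0. Of all groups tested, 9 and 32 were then called on the high side, against 0. For methylnaphthalene against WAF, 7 members were called with no fold change threshold, 6 with limma, 4 with the likelihood ratio test and 4 with DESeq2, against 2. Without TMM 1 was called, and 1 in the fit of 2 groups. Over all groups tested these fits called 248, 209, 141, 136, 28 and 27 on the high side, against 82. TMM scaling gave 4 members without overlap in place of 5 for WAF against control. For methylnaphthalene against WAF it gave 2 in place of 1. No share was counted over all groups with this scaling. The causes of these moves were not tested. With the replicate block, 20, 0 and 6 members were called for the 3 comparisons, where all groups tested gave 308, 0 and 258 on the high side. The larvae were taken to share only a number, since no label ties them and 12 of 18 same-numbered pairs, not all, had r above 0.1 (range -0.40 to 0.63). The best r was with the own number in 9 of 36 cases, a hint from the data and not the design. Integrin beta-5 and monocarboxylate transporter 9 rested on few reads, with 0 counts in WAF replicate 3, and integrin beta-5 also had 0 in control replicate 2. The part of depth in these zeros was not tested.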
